A study of Drosophila melanogaster with 7 samples.

Results

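The genes described here are 10 Notch target genes of the Enhancer of split complex, E(spl), in the Drosophila melanogaster eye imaginal disc. They were chosen by name, as the bHLH repressor and Bearded-family genes of the complex, and through the probe annotation of the array. Of the 10 genes, 8 had a value on at least 1 array, out of 5971 named genes with a value. E(spl)mgamma-HLH and E(spl)m8-HLH had no probe named for them and are not analysed here. Of the 8 genes, 6 had a value on all 7 arrays, and 7 had one from every RNA extraction and were tested. E(spl)m5-HLH had values on the 3 sevS11 arrays and on no sevd2 array, so it was not tested.

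Notch is a receptor that is cleaved when it binds its ligand Delta or Serrate on a neighbouring cell, and its freed intracellular part joins the DNA-binding protein Suppressor of Hairless at target genes. The E(spl) complex is the best known group of these targets. Its bHLH proteins bind the co-repressor Groucho and repress proneural genes such as atonal, and its Bearded-family proteins inhibit the ubiquitin ligase Neuralized, which the ligand needs in the signal-sending cell. In the eye disc Notch acts in lateral inhibition behind the morphogenetic furrow, in the R3/R4 choice and, together with the receptor tyrosine kinase Sevenless, in R7 and cone cell fates.

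The series compared eye imaginal discs from larvae of the third instar, staged with bromophenol blue, from 2 genotypes on a w1118 background, kept at 25 °C. The sevd2 discs (sevd2;+;+) carried an allele of sevenless (sev) known as loss-of-function, and the sevS11 discs carried a form of sev known as activated. Each of 4 sevd2 and 3 sevS11 arrays of 2 colours set mutant RNA against 1 common pool of RNA from the isogenic w1118;+;+ wild-type strain, which is not mutant for sev. RNA of each genotype came from 2 extractions. A dye-swapped pair of arrays held each extraction, except sevS11 extraction 2, which was hybridised on 1 array (sevS11 replicate 3) without a swap. The labels do not say how many discs or animals an extraction pooled, or which promoter drives sevS11.

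The labels call the reference pool eye discs in 2 fields and wing discs in 1. Of 11 eye disc marker genes all had a value, and the 9 that were tested besides sev lay between -0.46 and 0.51 against the reference in sevS11 and between -0.27 and 0.32 in sevd2, with 1 passing the test, ro in sevS11. Of 8 wing disc markers, 4 had no value, vg and nub among them, and the 1 tested, bs, stood at -0.10 and 0.23. All values are log2 ratios, likely of mutant over reference. That direction was taken from sev, which stood at 1.85 and 4.43 in the sevS11 extractions and at -0.32 and -0.41 in the sevd2 extractions, so sev is no check of the labels. Across genes, the arrays of a swapped pair correlated at 0.645 to 0.889. The single array of sevS11 extraction 2 correlated at 0.529 and 0.36 with the other sevS11 arrays and at 0.304 to 0.517 with the sevd2 arrays. Those of sevS11 extraction 1 correlated at 0.007 to 0.263 with the sevd2 arrays. All arrays share the reference pool, and the correlations are a description only. Since the sevS11 extractions differ in this way, values are given below for each extraction. Extraction values are means over the arrays of the extraction. The exception is sevS11 extraction 2, whose single array had a dye effect subtracted. That effect was estimated from the swapped pairs of the other extractions, and the step is called the dye correction.

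In sevS11 discs 3 of the 7 tested E(spl) genes were higher than in the reference, E(spl)m4-BFM by 1.77-fold, E(spl)mdelta-HLH by 1.45-fold and E(spl)malpha-BFM by 1.43-fold, and none was lower. Over all 3586 tested genes 2.18% passed as higher, 3.60% as lower and 5.77% in either direction. Of the 7 genes, 6 lay above 0, as did 49.3% of all genes, and the same 6 had an unadjusted p under 0.05, as did 25.3% of all genes. On the arrays themselves, all 6 genes with a value everywhere lay above 0 on every sevS11 array, which 23.3% of all such genes did. The median of the 7 tested genes was 0.48, against a median of -0.004 over all genes tested. In sevd2 discs none of the 7 genes passed (limma, with 1 at an unadjusted p under 0.05), where 0.0837% of all genes did, and their median was 0.10. In bulk discs a change in the number of cells that express a gene and a change in RNA per cell cannot be told apart. Values that follow carry the standard error (SE) of a limma fit across all genes over n = 2 extractions per genotype, in which both genotypes share 1 spread and a Benjamini-Hochberg adjusted p under 0.05 passes. Both genotypes were set against the same reference pool, so their ratios share its error.

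Some genes of blood cells, which can adhere to dissected discs, were also higher in sevS11. Of 13 hemocyte markers all had a value, and 3 of the 8 tested passed as higher, PPO1 (1.13 ± 0.12), PPO2 (1.75 ± 0.12) and He (1.26 ± 0.18), of which PPO1 and PPO2 were also higher in sevS11 than in sevd2, by 2.10 and 2.72. The other 5 lay between -0.25 (NimC1) and 0.37 (Col4a1) and did not pass, and the median of the 8 was 0.22. The mean of the 8 was 0.61 and 0.43 in the sevS11 extractions and -0.63 and -0.50 in the sevd2 extractions. Their part in the E(spl) values was not tested. Of 5 glial markers 3 were tested and none passed, with means of -0.40 and -0.07 in sevS11 and 0.06 and -0.17 in sevd2. Of 4 tracheal and peripodial markers 1 had a value and none was tested.

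**Figure D1:**
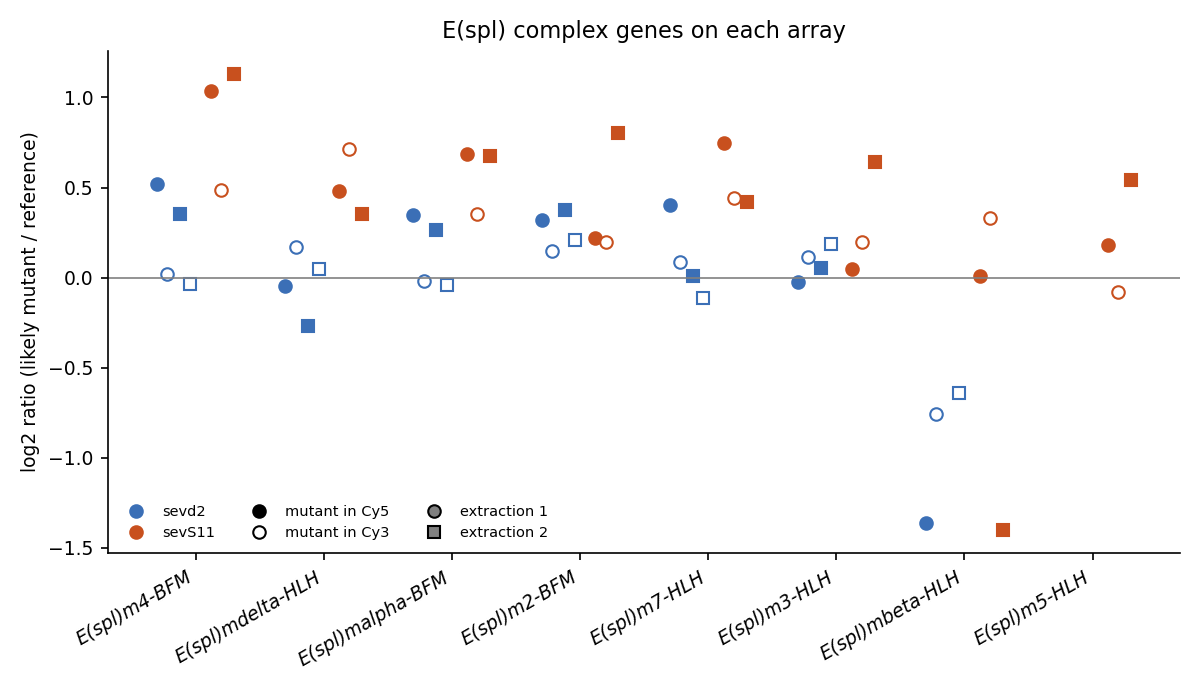
Log2 ratios of the 8 E(spl) genes with a value on each array, in order of their sevS11 value, with E(spl)m5-HLH, which was not tested, last. Blue is sevd2 and orange sevS11, filled symbols have the mutant RNA in Cy5 and open ones in Cy3, and circles and squares are extractions 1 and 2. For E(spl)m4-BFM the filled symbols of each genotype lie above the open ones, and for E(spl)mbeta-HLH the sevS11 values run from -1.40 to 0.33.

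The Bearded-family gene E(spl)m4-BFM, whose small protein inhibits Neuralized, had the highest sevS11 value of the complex. Its log2 ratios were 1.04, 0.49 and 1.13 on the sevS11 arrays and 0.52, 0.02, 0.35 and -0.03 on the sevd2 arrays. All sevS11 values lay above 0, but the lowest of them was below the highest sevd2 value, so the arrays of the genotypes overlapped. The 2 overlapping arrays had opposite dye orientations. With the mutant RNA in Cy5 the sevS11 arrays stood at 1.04 and 1.13 and the sevd2 arrays at 0.52 and 0.35, and with it in Cy3 the values were 0.49 against 0.02 and -0.03. The pair means were 0.76 for sevS11 extraction 1 and 0.27 and 0.16 for the sevd2 extractions. The single array of sevS11 extraction 2, at 1.13, stood at 0.89 after the dye correction. The fitted sevS11 value was 0.83 ± 0.10 (limma, adjusted p = 0.0170), and it ranked as number 36 from the highest of 3586 genes. The sevd2 value, 0.21 ± 0.10, did not pass (limma, adjusted p = 0.573).

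E(spl)malpha-BFM, a second Bearded-family inhibitor of Neuralized, had ratios of 0.69, 0.35 and 0.68 on the sevS11 arrays and of 0.35, -0.02, 0.26 and -0.04 on the sevd2 arrays. The lowest sevS11 value, 0.351, lay just above the highest sevd2 value, 0.349, and the extraction means were 0.52 and 0.51 against 0.16 and 0.11. It rose in sevS11 by 0.51 ± 0.09 (limma, adjusted p = 0.0407) and stood at 0.14 ± 0.09 in sevd2 (limma, adjusted p = 0.720). The sevS11 extractions differed by 0.013 after the dye correction. The median gap between these extractions over all tested genes, corrected alike, was 0.258. Before the correction, extraction 2 stood at 0.68, against 0.52 for extraction 1.

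E(spl)m2-BFM, the remaining tested Bearded-family gene, had 0.22 and 0.20 on the arrays of sevS11 extraction 1 and 0.80 on that of extraction 2. The sevd2 arrays gave 0.32, 0.15, 0.38 and 0.21. The sevS11 values of extraction 1 thus lay within the range of the sevd2 arrays, and the single array of extraction 2 lay above it. The fitted sevS11 value, 0.48 ± 0.14, did not pass (limma, adjusted p = 0.117), and the sevd2 value was 0.26 ± 0.14.

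Among the bHLH repressor genes, E(spl)mdelta-HLH, whose expression is known to mark the R4 photoreceptor precursor, was the 1 of 4 tested that passed as higher in sevS11. Its ratios were 0.48, 0.72 and 0.35 on the sevS11 arrays and -0.05, 0.17, -0.27 and 0.05 on the sevd2 arrays. Every sevS11 array lay above every sevd2 array, and the sevd2 values lay on both sides of 0. The fitted values were 0.54 ± 0.10 in sevS11 (limma, adjusted p = 0.0415) and -0.03 ± 0.10 in sevd2 (limma, adjusted p = 0.968).

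E(spl)m7-HLH, another bHLH repressor gene, stood at 0.75, 0.44 and 0.42 on the sevS11 arrays and at 0.40, 0.09, 0.01 and -0.11 on the sevd2 arrays. Its genotypes did not overlap, and the closest arrays stood at 0.42 and 0.40. The sevS11 value, 0.45 ± 0.13, did not pass (limma, adjusted p = 0.105). E(spl)m3-HLH had ratios of 0.05, 0.20 and 0.64 on the sevS11 arrays and between -0.02 and 0.19 on the sevd2 arrays. As for E(spl)m2-BFM, it was the array of extraction 2 that lay above the sevd2 range, and the fitted value, 0.42 ± 0.15, did not pass (limma, adjusted p = 0.166). E(spl)m5-HLH stood at 0.18, -0.08 and 0.54 on the sevS11 arrays, again highest in extraction 2.

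E(spl)mbeta-HLH, a bHLH repressor gene that is broadly expressed in discs, was the 1 tested gene of the complex below 0 in sevS11, and its extractions went apart. Its ratios were 0.01 and 0.33 in sevS11 extraction 1 and -1.40 in extraction 2. In sevd2 they were -1.36, -0.76 and -0.64, and the array of sevd2 replicate 3 had no value. All 3 sevd2 values and the array of sevS11 extraction 2 were thus low, and the 2 arrays of sevS11 extraction 1 were not. The extraction values of sevS11 were 0.17 and, after the dye correction, -1.17, a gap of 1.34. The fitted value of -0.50 ± 0.31 did not pass (limma, adjusted p = 0.348). The sevd2 value of -0.85 ± 0.31 ranked 3563 from the highest of 3586 genes and likewise missed the threshold (limma, adjusted p = 0.434), but it passed in 7 of 20 alternative settings, such as with all arrays scaled alike (-1.12, adjusted p = 0.0424) or on the sevd2 extractions alone (-0.85, adjusted p = 0.00519). The value of sevd2 extraction 2 rests on the Cy3 array alone, so its dye effect was not averaged out.

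**Figure D2:**
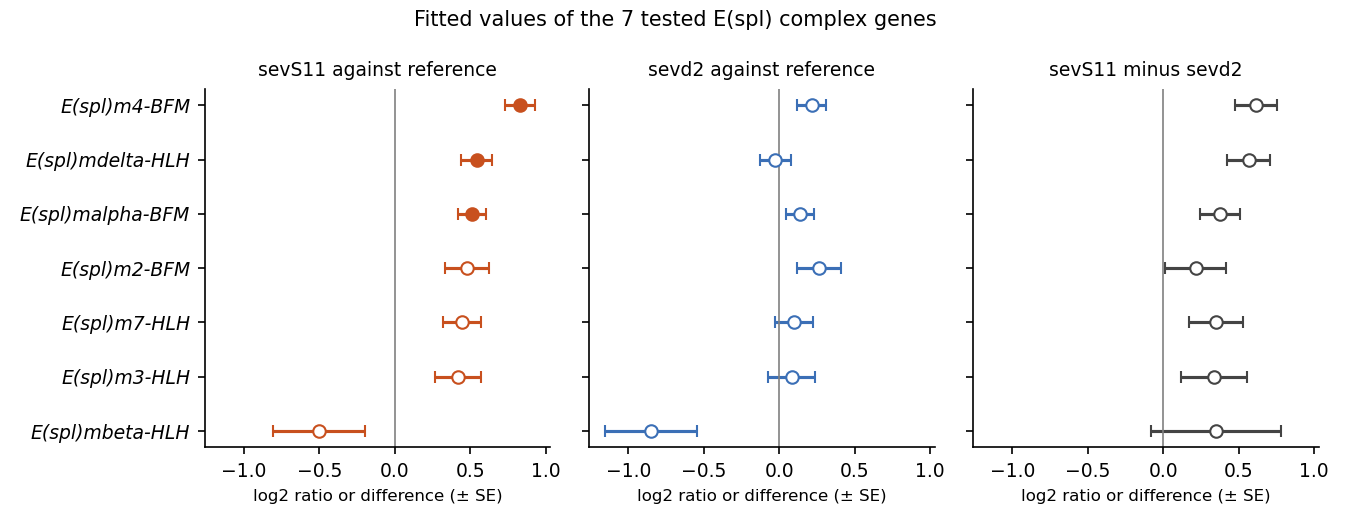
Fitted log2 ratios of the 7 tested E(spl) genes in sevS11 and sevd2 against the reference, and their difference, with bars of 1 SE from the limma fit. Filled points passed an adjusted p under 0.05; these are E(spl)m4-BFM, E(spl)mdelta-HLH and E(spl)malpha-BFM in sevS11.

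The 3 calls in sevS11 did not rest equally firmly. That of E(spl)m4-BFM was kept in each of 22 alternative settings, at 0.61 to 0.95. Those of E(spl)mdelta-HLH and E(spl)malpha-BFM ended in 7 and 6 of them, at values of 0.41 to 0.55 and 0.37 to 0.52. Among these settings were scaling the arrays to 1 median absolute value (0.41 and 0.37) and leaving out sevS11 replicate 1 (0.53 and 0.51), sevd2 extraction 1 (0.55 and 0.52) or sevd2 extraction 2 (0.53 and 0.51), after each of which only E(spl)m4-BFM passed. E(spl)mdelta-HLH also ended without the dye correction of extraction 2 (0.48). Leaving out sevS11 extraction 2 leaves 1 sevS11 extraction and the spread of the sevd2 extractions alone, so only values are given here. The tested E(spl) genes then lay between 0.12 (E(spl)m3-HLH) and 0.76 (E(spl)m4-BFM), with E(spl)m7-HLH at 0.59 and E(spl)mbeta-HLH at 0.17. Without sevS11 extraction 1, which likewise leaves 1 sevS11 extraction, E(spl)mbeta-HLH stood lower, at -1.10. The other tested E(spl) genes then lay between 0.31 (E(spl)m7-HLH) and 0.91 (E(spl)m4-BFM).

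**Figure D3:**
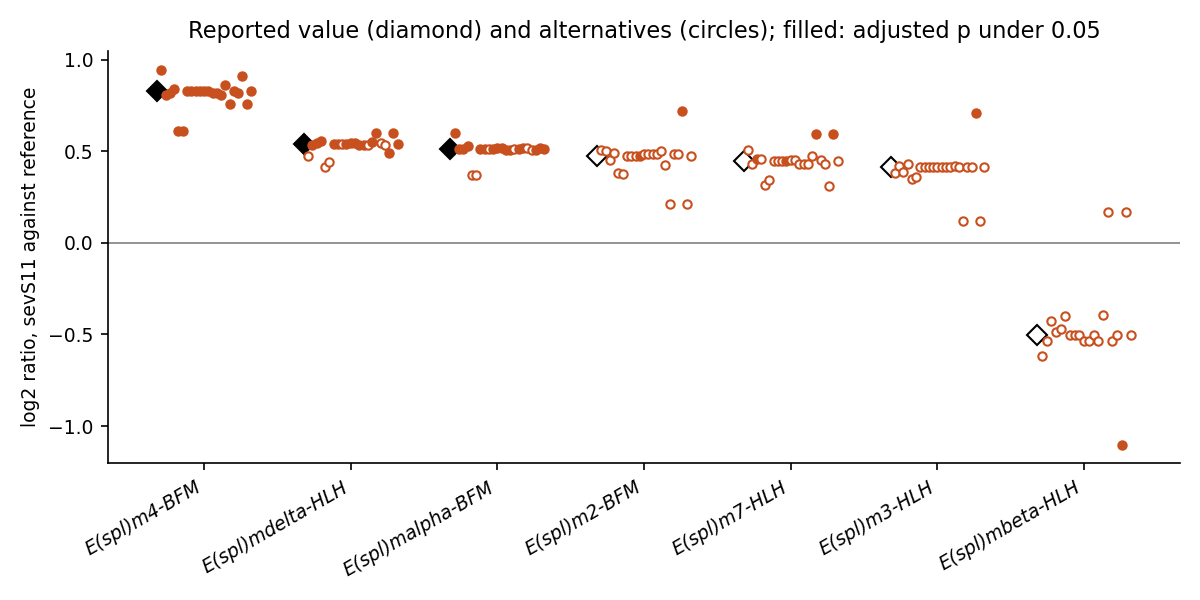
Log2 ratio of each tested E(spl) gene in sevS11 against the reference in the reported fit (diamonds) and in each alternative setting (circles), with filled symbols for an adjusted p under 0.05. All symbols of E(spl)m4-BFM are filled, and those of E(spl)mbeta-HLH reach from -1.10 to 0.17.

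Set directly against each other, the genotypes did not differ in any E(spl) gene by the test across all genes, although all 7 values lay above 0, that is, towards sevS11. In this comparison 0.0558% of all genes passed, and 47.8% lay above 0. The differences were largest for E(spl)m4-BFM (0.61 ± 0.14, 95% interval 0.27 to 0.96; limma, adjusted p = 0.198) and E(spl)mdelta-HLH (0.57 ± 0.14, interval 0.21 to 0.92; adjusted p = 0.228). That of E(spl)malpha-BFM was 0.38 ± 0.13 (interval 0.05 to 0.70; limma, adjusted p = 0.332). These intervals are not adjusted for the number of genes. At an unadjusted p under 0.05 there were 3 of the 7 genes and 12.7% of all genes. Without sevS11 extraction 2 the difference of E(spl)mbeta-HLH was 1.02, and without sevS11 extraction 1 it was -0.25.

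The remaining differences were 0.35 ± 0.18 for E(spl)m7-HLH, 0.33 ± 0.22 for E(spl)m3-HLH, 0.35 ± 0.43 for E(spl)mbeta-HLH and 0.21 ± 0.20 for E(spl)m2-BFM. Their intervals all included 0 and reached up to 0.72 or more, so changes of the size seen in E(spl)m4-BFM cannot be told from none for these genes. The median difference was 0.35 over the 7 genes and -0.015 over all genes. Both sevS11 extractions lay above both sevd2 extractions for 5 of the 7 genes, the exceptions being E(spl)m2-BFM and E(spl)mbeta-HLH. For E(spl)m3-HLH the closest extractions stood at 0.122 and 0.119. The same order held for 22.3% of all tested genes. At the level of single arrays the genotypes did not overlap for 3 of the 6 genes with a value everywhere, and for 13.3% of all such genes. Compared within each dye orientation, 4 of the 6 genes were higher on every sevS11 array, E(spl)m4-BFM now among them, and 19.0% of all such genes.

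In sevd2 against the reference, 1 of the 7 genes, E(spl)mbeta-HLH, had an unadjusted p under 0.05 (limma), where 9.76% of all genes did. After adjustment none of the 7 was lower, and 0.0279% of all genes were. In alternative settings E(spl)mbeta-HLH passed as lower in 7 of 20, at adjusted p between 0.00327 and 0.0424, and E(spl)m2-BFM as higher in 4 of 22, at adjusted p between 0.0314 and 0.0417 (limma). Among these were the fits on the sevd2 extractions alone and those without either sevS11 extraction. Of the 7 genes 5 lay above 0, as did 52.6% of all genes. The other 6 genes stood between -0.03 and 0.26 in sevd2. The 3 tested Bearded-family genes ran from 0.14 to 0.26 and the 3 bHLH genes other than E(spl)mbeta-HLH from -0.03 to 0.10. The sevd2 ratios were smaller in general: the median absolute ratio over probes was 0.117 to 0.168 on the sevd2 arrays and 0.206 to 0.288 on the sevS11 arrays. When all arrays were scaled alike, the difference of E(spl)m4-BFM between the genotypes fell from 0.61 to 0.37.

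The dye effect, the mean gain in the log2 ratio when the mutant RNA carried Cy5 instead of the average of both dyes, differed in size and sign between the E(spl) genes. For E(spl)m4-BFM it was 0.25 and 0.19 in the sevd2 pairs and 0.28 in the sevS11 pair. E(spl)malpha-BFM had 0.18, 0.15 and 0.17, and E(spl)mdelta-HLH had an effect in the other direction, at -0.11, -0.16 and -0.12. It was less alike between pairs in E(spl)m2-BFM, with 0.086 and 0.084 in sevd2 and 0.010 in sevS11, and in E(spl)m7-HLH, with 0.16, 0.061 and 0.15. All 6 genes with 3 complete pairs kept 1 sign in the pairs, which 54.7% of all such genes did. The median size was 0.129 over the tested E(spl) genes and 0.056 over all tested genes. For this reason the mean dye effect of each gene was taken off the unswapped array of sevS11 extraction 2, which moved E(spl)m4-BFM there from 1.13 to 0.89 and E(spl)mdelta-HLH from 0.35 to 0.48.

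**Figure D4:**
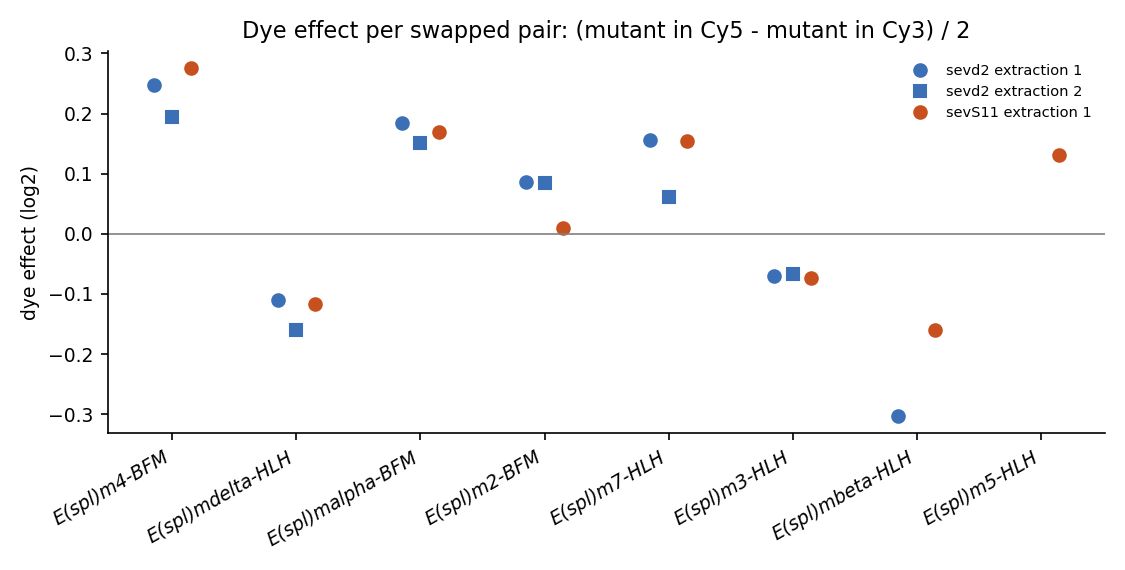
Dye effect on the log2 scale for each swapped pair of arrays, taken as the ratio with mutant RNA in Cy5 minus the mean of the pair. Circles and squares are extractions 1 and 2, blue is sevd2 and orange sevS11. Genes keep their sign from pair to pair, with E(spl)m4-BFM at 0.19 to 0.28 and E(spl)mdelta-HLH at -0.16 to -0.11.

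Along chromosome arm 3R the complex runs from E(spl)mdelta-HLH to E(spl)m8-HLH, followed by gro, which encodes the co-repressor of the bHLH proteins. The 3 genes that passed as higher in sevS11 were not next to each other in this order. Among the genes between and beside them, E(spl)m2-BFM (0.48), E(spl)m3-HLH (0.42) and E(spl)m7-HLH (0.45) also lay above 0 without passing. E(spl)mbeta-HLH lies between E(spl)mdelta-HLH and E(spl)malpha-BFM, with E(spl)mgamma-HLH in between, and its fitted value in sevS11 lay below 0, where theirs lay above it. That sign rests on the single array of extraction 2, since extraction 1 stood at 0.17. E(spl)m4-BFM lies between E(spl)m3-HLH and E(spl)m5-HLH. Of the other genes inside the complex, Kaz-m1 (formerly E(spl)m1) and E(spl)m6-BFM had no value. Of the flanking genes, gro stood at 0.27 ± 0.13 in sevS11 and 0.33 ± 0.13 in sevd2, Nf1 at 0.02 and 0.33, and Vps2 at 0.04 and -0.03, and none passed. The flanking genes other than gro were chosen after the values of the complex were seen.

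**Figure D5:**
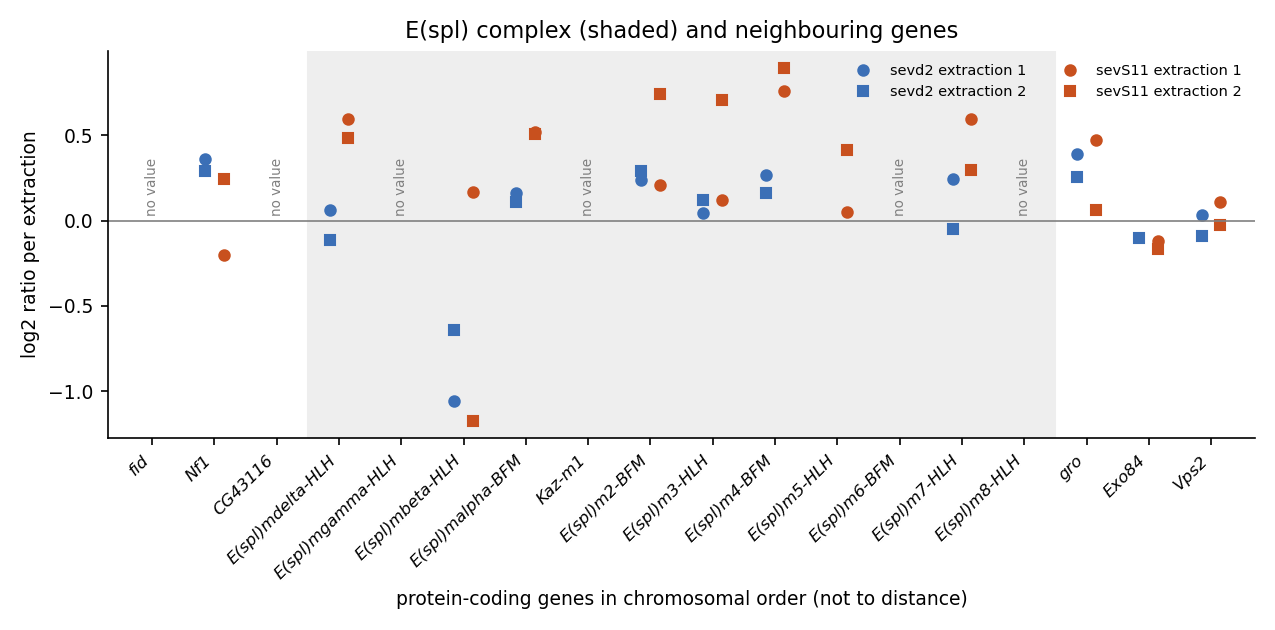
Log2 ratio of each extraction for the protein-coding genes of the E(spl) complex (shaded) and its neighbours, in the order of the Release 6 gene table, with even spacing and not by distance. Orange is sevS11, blue sevd2, circles extraction 1 and squares extraction 2. The sevS11 points lie above the sevd2 points for E(spl)mdelta-HLH, E(spl)malpha-BFM, E(spl)m4-BFM, E(spl)m7-HLH and, at 0.122 against 0.119 for the closest points, E(spl)m3-HLH.

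Genes that act upstream of the complex or beside it did not move past the test. Of 51 genes on 6 lists of the Notch pathway and related families, 33 had a value and 27 were tested, and none passed in any of the 3 comparisons (limma). Of all genes 5.77% passed in sevS11, 0.0837% in sevd2 and 0.0558% in the difference, so none of 27 is near the background in all 3. At an unadjusted p under 0.05 there were 4, 3 and 0 of the 27, beside 25.3%, 9.76% and 12.7% of all genes. Their medians were 0.12 in sevS11, 0.15 in sevd2 and -0.05 for the difference. The Notch gene N itself, Ser, Su(H), mam and H had no value.

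Of 14 genes of the ligands, ligand traffic and receptor modification, 11 were tested. The ligand gene Delta stood at 0.34 ± 0.12 in sevS11 and 0.24 ± 0.12 in sevd2. Su(dx), a ubiquitin ligase that acts on Notch, had -0.38 ± 0.15 and -0.05 ± 0.15, and neur, the gene of Neuralized, 0.21 ± 0.11 and 0.07 ± 0.11. O-fut1, which adds fucose to Notch, had 0.21 ± 0.11 and 0.19 ± 0.11. Of 7 genes of Notch cleavage 4 were tested. Among them kuz, which encodes the protease that sheds the Notch ectodomain, had 0.33 ± 0.10 in sevS11 and 0.10 ± 0.10 in sevd2, and Psn, the catalytic subunit of gamma-secretase, stood at -0.23 and -0.18. Of 10 nuclear factors and co-repressors 5 were tested, with gro at the top in sevS11 and Bx42, a cofactor of the Notch complex, at 0.14 and 0.19.

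Of 6 listed Bearded-family genes outside the complex, Tom and Brd were tested. Tom stood at 0.07 and 0.39 in the sevS11 extractions and at 0.39 and 0.42 in the sevd2 extractions, and Brd at 0.07 and 0.11 against 0.36 and 0.39. Both genes were thus higher in sevd2 than in sevS11 by their means, with differences of -0.18 ± 0.16 and -0.29 ± 0.13 that did not pass (limma, adjusted p = 0.634 and 0.417). The sevd2 values themselves, 0.41 ± 0.11 and 0.38 ± 0.09, missed the threshold as well (limma, adjusted p = 0.306 and 0.243).

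Of 5 other genes of the Hairy and E(spl) type, the pair-rule gene hry was tested and stood at 0.37 ± 0.14 in sevS11 and 0.03 ± 0.14 in sevd2. Of 9 proneural genes and their partners, 4 were tested. The proneural gene ato, which founds the R8 photoreceptor, had 0.19 ± 0.09 and 0.03 ± 0.09, and its dimer partner da 0.23 ± 0.11 and 0.15 ± 0.11. For sc, another proneural gene, the values were 0.03 and 0.05, and for emc, the last one tested, -0.0009 and 0.15.

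The gene whose 4 extraction values were most like those of E(spl)m4-BFM was Spt, with a root mean square difference of 0.090 in log2 ratio. It was followed by Dhpr (0.114), which encodes dihydropteridine reductase, CG7341 (0.123), spab (0.138) and unc-13 (0.159), a gene of synaptic vesicle priming. Of the E(spl) genes, E(spl)malpha-BFM came nearest, as number 35 of 3585 genes (0.235), and E(spl)mdelta-HLH was number 64. E(spl)mbeta-HLH was number 3543.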

How the data were processed

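Two-colour arrays of eye disc RNA were analysed from the deposited table of normalised values per probe, which hold log2 ratios as taken here. Per the submitters' processing notes the authors used limma. How the background was corrected, how values were normalised and filtered, and which log base and direction they have is not given here by any label or header. Base 2 follows limma's convention. The signs of swapped arrays had already been turned, since the pairs correlated above 0. Array medians lay between 0.0012 and 0.0191. Of 16416 probes, 8650 had no value on any array.

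Probes were named from the platform annotation with current symbols from the RefSeq table of assembly Release 6 plus ISO1 MT (12533 by gene identifier, 120 by accession, 511 with the older symbol kept, 101 with several genes and 3151 not listed, both of these unnamed). Probes of a gene were averaged. Each E(spl) gene with a value had 1 probe.

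Arrays of 1 extraction were averaged as 1 replicate, n = 2 per genotype. The labels call the extractions biological replicates and name no animals, so a p-value here reflects how far extractions differ, in part perhaps for technical reasons. They leave out the reference's own spread. The mean dye effect per gene was subtracted from the unswapped array. It came mostly from sevd2 pairs, and was 0 for the 147 tested genes without a complete pair. The 3586 genes with a value from every extraction were fitted with limma 3.58.1 in R 4.3.3 (lmFit, eBayes, 2 residual and 3.8 prior degrees of freedom). The fit alone was run on simulated extraction values, which did not cover the naming and averaging of probes, the averaging of arrays or the dye correction. The number of arrays limits the precision.

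The E(spl) genes, the lists and the tests were chosen with earlier results of these data known. The text names all E(spl) genes, the rest of the complex, up to 4 genes per list by lowest p in sevS11, and the 5 genes nearest to E(spl)m4-BFM. The settings varied were the dye correction, the fit (per array), centring, scaling, quantile normalisation, complete genes, single probes, the genotype's own extractions, a block on the extraction number, and leaving out each array and extraction. Subtracting the dye effect from every lone value was added after seeing the data.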

Additional observations from a re-analysis of the deposited data

Results flagged for a closer look

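On the 4 sevd2 arrays the co-repressor gene CtBP had 0.292 on replicate 1 and -0.049 to 0.002 on the others, a gap of 0.848 of the whole range. It was the 1 such array among 30 genes of the complex, its flanks and its pathway with 4 sevd2 values, and chance gives about 1 in 20.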

How the results depend on the processing

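The count of 3 E(spl) genes higher in sevS11 became 1 with scaling, quantile normalisation and only the sevS11 extractions, and lay between 1 and 5 with arrays or extractions left out. The 0 E(spl) genes of sevd2 became 1 with scaling and 2 with only the sevd2 extractions, and lay between 0 and 2 with arrays or extractions left out. The 0 of sevS11 minus sevd2 lay between 0 and 5. The extraction numbers did not pair the samples (correlation of deviations -0.065). With the extraction number as a replicate block, 5 E(spl) genes passed in sevS11, 1 in sevd2 and 0 in the difference, and over all genes 383, 92 and 85.

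Over all genes, the 207 of sevS11 (78 higher, 129 lower) became 395 in the array-level fit, 116 with scaling and 132 for complete genes, and lay between 76 and 1745 with arrays or extractions left out. The 3 of sevd2 (2 higher, 1 lower) became 0 without the dye correction, 5 with the sevS11 pair's dye effect, 39 in the array-level fit (9 higher), 11 with centring (4 higher), 174 with scaling (74 higher), 166 with quantile normalisation (75 higher), 13 for complete genes, 496 with the sevd2 extractions alone and 16 with every lone value corrected for dye. They lay between 4 and 540 with arrays or extractions left out. The 2 of the difference (both higher) became 1 without the dye correction, with the sevS11 pair's dye effect, with centring or per probe, 38 in the array-level fit (23 higher), 27 with scaling (20 higher), 23 with quantile normalisation (15 higher) and 0 for complete genes, and lay between 1 and 1516 with arrays or extractions left out. The highest counts came from fits with a single sevS11 extraction, assumed to vary like sevd2, whose extractions had a median gap of 0.089 against 0.258 in sevS11. In other cases the cause was not tested.

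Of 449 values of single E(spl) genes, 396 kept direction and side of the threshold, 33 came to pass, 13 ceased to pass and 7 changed sign. All sign changes came from leaving out arrays or extractions. With these, E(spl)mbeta-HLH lay between -1.10 (without sevS11 extraction 1) and 0.17 (without extraction 2, which is replicate 3) in sevS11, and its difference between -0.25 and 1.02 in the same settings. The difference of E(spl)m2-BFM lay between -0.054 (without sevS11 extraction 2) and 0.46. In sevd2, E(spl)mdelta-HLH lay between -0.11 and 0.060 (without extraction 2) and E(spl)m7-HLH between -0.052 (without extraction 1) and 0.24.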
